A study of Mus musculus with 8 samples.

Results

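The genes described here are 28 transcripts that the literature reports as direct or functional targets of the microRNAs miR-23, miR-27 or miR-24. They were taken by name from a list, and all 28 were among the 15853 genes of the deposited comparison. The samples were macrophages grown from mouse bone marrow and then cultured for 24 h with 10 nM insulin, 25 mM glucose and 250 uM of the saturated fatty acid palmitate (C16:0), which the labels call metabolic activation. Knockout cells had the genotype Mirc11fl/fl Mirc22fl/fl Lyz2Cre/Cre and control cells the genotype Mirc11fl/fl Mirc22fl/fl Lyz2+/+, with 4 RNA-seq libraries each. Both groups carried loxP-flanked (fl) alleles of the 2 clusters that encode these microRNAs, both were grown in L929 conditioned medium, and both received the same treatment. The knockout group alone carried the Cre recombinase, driven from both copies of the myeloid gene Lyz2, so the groups also differed in Cre and in Lyz2 itself. The ages of the mice are not given, nor whether marrow was pooled.

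A microRNA guides the Argonaute silencing complex to messages whose 3' untranslated region (UTR) pairs with its seed, the bases near its 5' end. Bound messages are translated less and are often degraded faster, so a target can rise in RNA when its microRNA is removed, and it can also change in protein alone. The 3 families are made together from each cluster, and a gene can be a target of more than one of them. In earlier work miR-23b was reported to target the inflammatory signalling genes Tab2, Tab3 and Chuk, miR-27 to target Runx1, Mef2c, Foxo1 and the lipid synthesis gene Gpam, and miR-24 to target E2f2, Myc and Bcl2l11.

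The mature sequences are shown because their seeds define the matches counted here. Capitals mark the seed, bases 2 to 8 counted from the 5' end, in the RefSeq sequences of build GRCm38.p6.
miR-23a-3p: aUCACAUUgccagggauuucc
miR-27a-3p: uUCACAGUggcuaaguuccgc
miR-27b-3p: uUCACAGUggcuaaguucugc
miR-24-3p: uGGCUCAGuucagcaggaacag
miR-23a-3p lies at chr8:84208563-84208583, miR-27a-3p at chr8:84208727-84208747 and miR-27b-3p at chr13:63300760-63300780, all on the plus strand. miR-24-3p is encoded once in each cluster, at chr8:84208875-84208896 and at chr13:63301251-63301272, also on the plus strand. The miR-27 pair shares its seed and differs at 1 of 21 bases, position 19. The seeds of miR-23 and miR-27 begin with the same 5 bases, whereas that of miR-24 shares no position with either.

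For every gene the longest 3' UTR in the annotation (GENCODE M21, GRCm38) was searched on the message strand for an 8-nucleotide match, the complement of the seed followed by an A, and for the shorter matches of 7 nucleotides. For miR-23 these were AATGTGAA (8), AATGTGA and ATGTGAA (7), for miR-27 ACTGTGAA (8), ACTGTGA and CTGTGAA (7), and for miR-24 CTGAGCCA (8), CTGAGCC and TGAGCCA (7). Each place was counted once, as the longest kind. Of the members that passed the threshold of the deposited test, 1 match for each microRNA is given: the first of 8 nucleotides after the stop codon, or else the first complementary to all 7 seed bases. It is shown with 8 bases on either side and with the match in capitals.
Cxcl12, miR-23: tcccagatAATGTGAAaacggtcc
Cxcl12, miR-24: gccccgagCTGAGCCcccttggc
Hmgb2, miR-23: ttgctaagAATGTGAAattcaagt
Apaf1, miR-23: tcctgggaAATGTGAcctcattg
Apaf1, miR-27: acatacttACTGTGAtttaagcc
Tab3, miR-23: tatcctggAATGTGAAggtgtccc
Tab3, miR-27: gcagacaaACTGTGAAttccagag
Chuk, miR-23: tttgaaaaAATGTGAAatgctttt
Gpam, miR-27: ggctagttACTGTGAtggacatt
Spry2, miR-23: ttcggaagAATGTGAAtcaatcag
Spry2, miR-27: tatttgcaACTGTGAAaaaaaaac

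On the plus strand the matches in capitals are at chr6:117181193-117181200 and chr6:117176497-117176503 for Cxcl12 (exon 4), chr8:57514180-57514187 for Hmgb2 (exon 5), and chrX:85633811-85633818 and chrX:85630918-85630925 for Tab3 (exon 9). On the minus strand they are at chr10:90990414-90990420 and chr10:90989822-90989828 for Apaf1 (exon 27), chr19:44073387-44073394 for Chuk (exon 21), chr19:55070617-55070623 for Gpam (exon 22), and chr14:105892263-105892270 and chr14:105892343-105892350 for Spry2 (exon 2). A match is a description of the sequence, and binding was not measured.

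The authors' deposited table gives a mean normalized count over all libraries, a log2 fold change with its standard error (SE) and a Benjamini-Hochberg adjusted p from a Wald test. Its header does not name the numerator, so the direction was read from Lyz2, whose coding sequence is disrupted by Cre in the knockout. The log2 fold change of Lyz2 was -9.10 (SE 0.42, authors' deposited table), and negative values are taken as lower in knockout throughout. Values of single libraries could not be tied to sample labels and were not used, so whether libraries of the groups overlap, and the depth per library, are unknown here. The 10 macrophage markers examined were all measured, with mean normalized counts from 13108 to 256192 in the authors' deposited table. Stromal markers, which mark fibroblast-like cells, were also present and summed to 12910 in knockout and 3247 in control. Fn1 alone gave 5175 of the knockout sum and 1150 of the control sum. The 9 macrophage markers other than Lyz2 summed to 653762 in knockout and 674535 in control. Of these 9, 1 was called higher and 4 lower, where 11.3% of all genes tested were called higher and 11.7% lower. Group means were derived from the authors' mean and fold change, assuming groups of equal size.

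Of the 28 reported targets, 6 were higher in the knockout, 1 was lower and 21 did not pass an adjusted p of 0.05. The 6 were Cxcl12, Hmgb2, Apaf1, Tab3, Chuk and Gpam, and the 1 was Spry2. The share called was 25.0%, against 23.0% of the 14619 genes tested, and thus near the background. By direction, 21.4% were called higher against 11.3% of genes tested, and 3.57% were called lower against 11.7%. At an unadjusted p under 0.05, 7 members were higher and 9 lower. The share of all genes tested at that cut was not computed, so nothing is read from these counts. With an adjusted p under 0.1, 6 were higher (21.4%, against 14.6% of genes tested) and 7 lower (25.0%, against 15.6%), or 13 in all (46.4%, against 30.2%). The balance of directions among the members thus depends on the threshold of the adjusted p. Among genes with a mean normalized count of at least 50 and p-values adjusted anew, Cxcl12 and Sema6a drop out. Of the remaining 26 members 5 were then higher (19.2%, against 11.3%) and 2 lower (7.69%, against 15.2%), or 26.9% in all against 26.5%. The median log2 fold change of the 28 was -0.03, against -0.0040 for all genes tested, with 13 positive and 15 negative values. These counts describe a list chosen with earlier results known, and no test of the list was made.

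**Figure D1:**
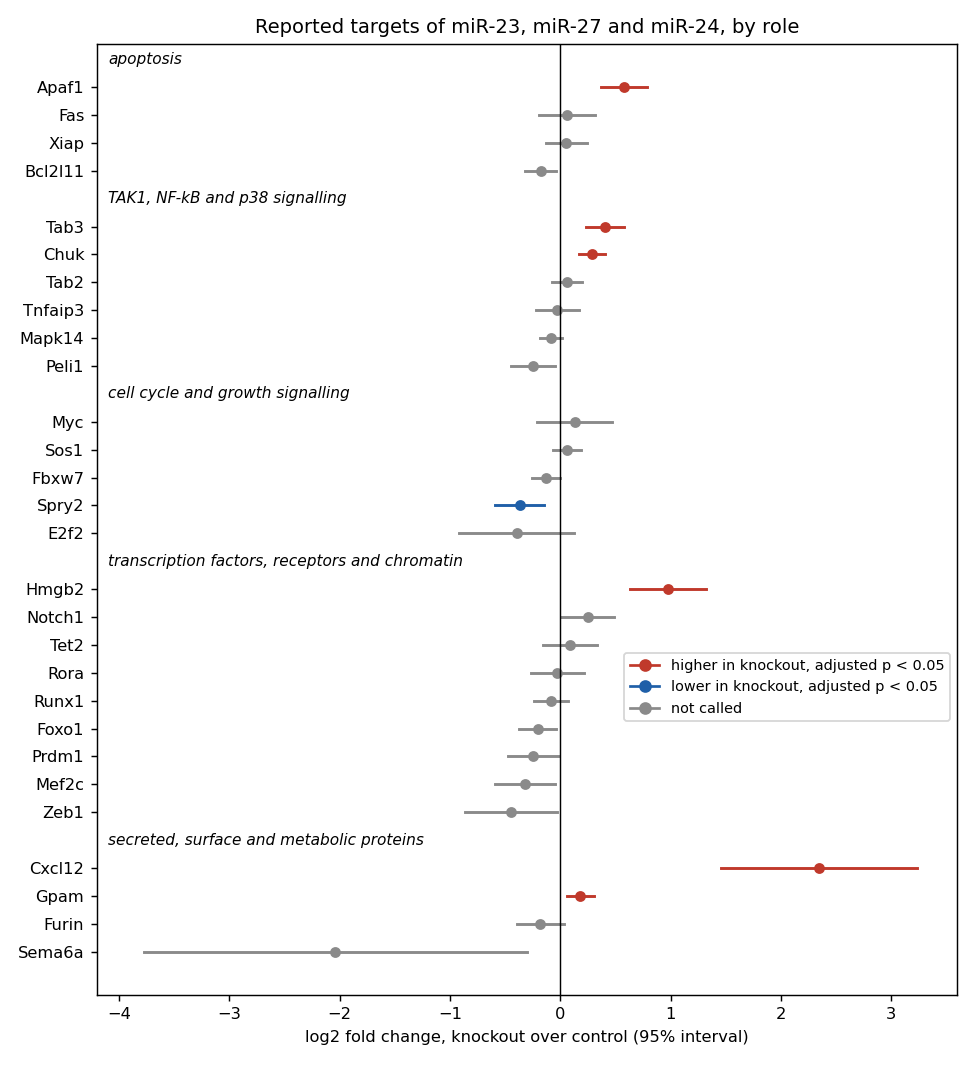
Log2 fold change, knockout over control (x axis), of each of the 28 reported targets (y axis), grouped by role, from the authors' deposited table. Points are fold changes, lines their 95% intervals from the deposited standard errors. The 6 red genes lie right of 0 and Spry2 in blue lies left of it. Of the 21 genes not called, 8 have intervals wholly below 0 and 1, Notch1, wholly above it, before adjustment over genes. The share of all genes tested with such intervals was not computed. The intervals of the low-count genes Sema6a and Cxcl12 and of E2f2 and Zeb1 are wide.

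Among the apoptosis genes, Apaf1 rose and the other 3 did not pass the test. Apaf1 encodes the scaffold of the apoptosome, which activates caspase-9 once cytochrome c leaves the mitochondria. Its derived mean normalized count was 7591 in knockout cells and 5094 in control cells. The log2 fold change came to 0.58 (SE 0.11, adjusted p = 2.1e-06, authors' deposited table), a 1.49-fold difference with a 95% interval of 1.29 to 1.72. The gene spans chr10:90989311-91082770 on the minus strand. Its 3' UTR of 2139 nucleotides holds 2 miR-23 and 3 miR-27 matches, all of 7 nucleotides. A miR-27 and a miR-23 match there start 15 nucleotides apart, 1622 and 1637 nucleotides after the stop codon, the closest pair for different microRNAs among the 28 genes.

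Bcl2l11, which encodes the pro-apoptotic BH3 protein Bim, has 2 of the 8-nucleotide miR-24 matches, more than any other member. The log2 fold change was negative, at -0.18 (SE 0.07, adjusted p = 0.0548, authors' deposited table), and its derived means were 10781 in knockout and 12206 in control. That p passes once genes with a mean under 50 are left out (adjusted p = 0.0494). Fas, the death receptor, was at 0.06 (SE 0.13, authors' deposited table), and Xiap, an inhibitor of caspases, was also at 0.06 (SE 0.09). Both hold an 8-nucleotide miR-23 match. The 95% intervals were 0.87 to 1.24-fold for Fas and 0.91 to 1.18-fold for Xiap.

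Tab3 and Chuk rose in the set of TAK1, NF-kB and p38 signalling genes, while the other 4 members did not pass the test. Tab3 encodes an adaptor that recruits the kinase TAK1 to ubiquitin chains downstream of cytokine and Toll-like receptors. Its derived mean was 1431 in knockout and 1081 in control, and its log2 fold change came to 0.41 (SE 0.09, adjusted p = 8.22e-05, authors' deposited table). Tab3 lies at chrX:85574022-85634469 and has 2 miR-23 and 3 miR-27 matches, 3 of these 5 being of 8 nucleotides. Chuk encodes IKK-alpha, a kinase of the NF-kB pathway, at chr19:44073335-44107480 on the minus strand. Its derived mean was 5172 in knockout and 4236 in control, and its log2 fold change came to 0.29 (SE 0.06, adjusted p = 3.28e-05, authors' deposited table). Its single match is the 8-nucleotide miR-23 match 1178 nucleotides after the stop codon, near the end of a UTR of 1236 nucleotides.

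Tab2, the paralog of Tab3 and like it a reported miR-23b target, was at 0.06 (SE 0.07, adjusted p = 0.592, authors' deposited table). Its 1 miR-23 match and 2 miR-27 matches are all of 7 nucleotides, and its interval ran from 0.95 to 1.14-fold. Tnfaip3, which encodes the ubiquitin-editing NF-kB inhibitor A20, was at -0.03 (SE 0.10, authors' deposited table), with 1 match for each microRNA. Mapk14, encoding the kinase p38-alpha, was at -0.08 (SE 0.05, authors' deposited table). Peli1, a ubiquitin ligase gene of Toll-like receptor signalling, was at -0.25 (SE 0.10, adjusted p = 0.0566, authors' deposited table), and no match for any of the 3 microRNAs was found in its UTR.

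**Figure D2:**
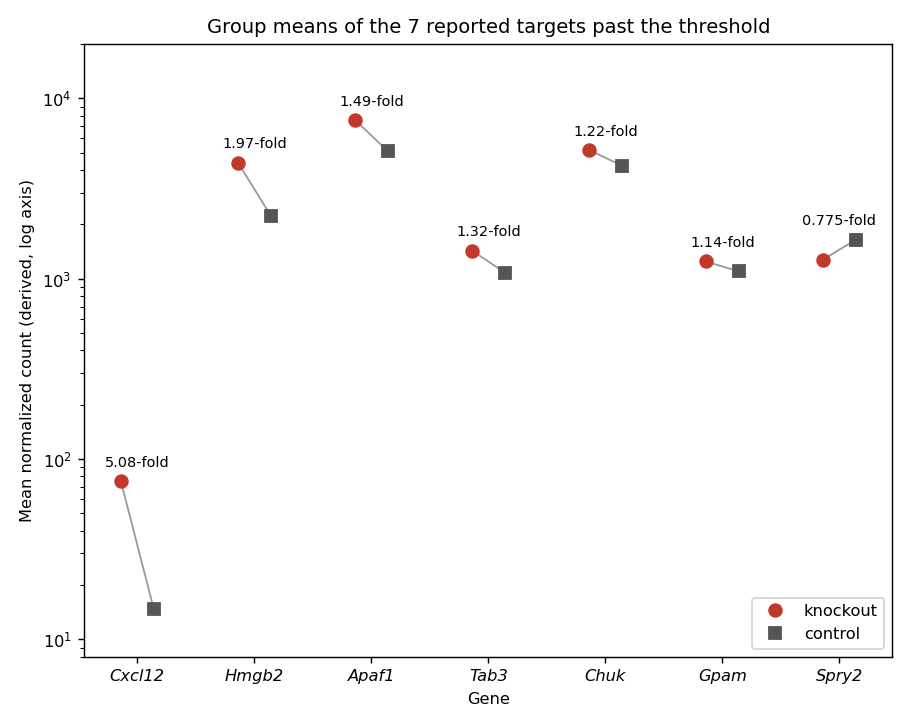
Derived mean normalized count (y axis, log scale) in knockout (red circles, left) and control (grey squares, right) for the 7 reported targets past the threshold (x axis), with the fold of knockout over control above each pair. Cxcl12 has the largest fold, 5.08, and the smallest counts, 75.0 in knockout and 14.8 in control, and Spry2 is the one gene with its knockout value below control. Group means carry no error bars because values per library were not used.

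The cell cycle and growth signalling genes held the 1 member that fell. Spry2 encodes Sprouty2, a feedback inhibitor of receptor tyrosine kinase and Ras signalling. Its derived mean was 1273 in knockout and 1643 in control. The log2 fold change came to -0.37 (SE 0.11, adjusted p = 0.00832, authors' deposited table), which is 0.775-fold with a 95% interval of 0.665 to 0.903. Spry2 (chr14:105891947-105896819, minus strand) carries 8-nucleotide matches for both miR-23 and miR-27, which start 80 nucleotides apart in a UTR of 856 nucleotides. Tab3, which rose, and Rora, which did not pass, also hold 8-nucleotide matches for both of these microRNAs.

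E2f2, an E2F transcription factor gene, had derived means of 621 in knockout and 817 in control. Its log2 fold change of -0.40 (SE 0.27, adjusted p = 0.289, authors' deposited table) did not pass, and its interval of 0.530 to 1.09-fold is among the widest. Myc, the growth-promoting transcription factor, was at 0.13 (SE 0.18, authors' deposited table), and its UTR of 466 nucleotides held no match. Fbxw7, the substrate receptor of a ubiquitin ligase that degrades Myc and Notch, has 2 of the 8-nucleotide miR-27 matches and was at -0.13 (SE 0.06, adjusted p = 0.143, authors' deposited table). Sos1, which loads Ras with GTP, has 7 matches and was at 0.06 (SE 0.06, authors' deposited table). Its interval reached no further than 1.14-fold.

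Hmgb2 was the one gene that rose among the transcription factors, receptors and chromatin genes. It encodes a high-mobility-group protein that bends DNA and is abundant in dividing cells. The derived mean was 4399 in knockout and 2237 in control. Its log2 fold change came to 0.98 (SE 0.18, adjusted p = 1.19e-06, authors' deposited table), or 1.97-fold with an interval of 1.55 to 2.50. Hmgb2 lies at chr8:57511907-57515999, and its 8-nucleotide miR-23 match begins 53 nucleotides after the stop codon. A second miR-23 match, of 7 nucleotides, begins at 1342. The proliferation genes Ccna2 and Aurkb, examined among other reported targets, were at 0.64 (SE 0.50) and 0.47 (SE 0.26, authors' deposited table) and did not pass. Their part in the Hmgb2 value was not tested.

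Notch1, a cell surface receptor whose cleaved part acts in the nucleus, was at 0.25 (SE 0.12, adjusted p = 0.127, authors' deposited table). With fold changes centred on the summed group means it stood at 0.31 and passed (adjusted p = 0.0487), but with Lyz2 left out of those sums it did not (0.30, adjusted p = 0.0587). The insulin-responsive factor gene Foxo1 was at -0.20 (SE 0.09, adjusted p = 0.0681, authors' deposited table). Prdm1, which encodes the repressor Blimp-1, was at -0.25 (SE 0.11, adjusted p = 0.0998, authors' deposited table). Mef2c, a MADS-box factor gene, was at -0.32 (SE 0.14, adjusted p = 0.0735, authors' deposited table). None of the last 3 passed, and each had a negative value and at least 2 matches.

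Runx1, a haematopoietic factor gene, was at -0.09 (SE 0.08, authors' deposited table) and holds 4 matches. Rora, which encodes a nuclear receptor, was at -0.03 (SE 0.12, authors' deposited table). Its 7 matches equal those of Sos1 as the highest number, in the longest UTR of the 28, 9285 nucleotides. Tet2, an enzyme gene of DNA demethylation, was at 0.09 (SE 0.12, authors' deposited table). Zeb1, a repressor of epithelial genes, was at -0.45 (SE 0.21, adjusted p = 0.115, authors' deposited table), with an interval of 0.548 to 0.981-fold before adjustment over genes.

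Cxcl12 and Gpam rose among the genes of secreted, surface and metabolic proteins. Cxcl12 encodes the chemokine that binds CXCR4 and is made mainly by stromal cells of the marrow. Its derived mean normalized count was 75.0 in knockout and 14.8 in control. The log2 fold change came to 2.34 (SE 0.45, adjusted p = 5.63e-06, authors' deposited table), a 5.08-fold difference with an interval of 2.75 to 9.38. The gene spans chr6:117168535-117181367 and holds 1 miR-23 match of 8 nucleotides and 1 miR-24 match of 7. Stromal markers moved with it: 15 of 16 measured were called higher and 0 lower, where 11.3% of all genes tested were higher and 11.7% lower. At an unadjusted p under 0.05 in the authors' Wald test 0 were lower as well, and the share of all genes at that cut was not computed. The log2 fold changes of these markers were 1.15 to 2.33 around a median of 1.96. None of those 16 was at 0, and 1 further marker was not in the table. Their part in the Cxcl12 value was not tested, and in bulk RNA a different number of cells of a type cannot be told apart from a different amount of RNA per cell.

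Gpam encodes the mitochondrial acyltransferase that starts triglyceride synthesis from glycerol 3-phosphate and fatty acyl-CoA. Its derived mean was 1244 in knockout and 1096 in control. The log2 fold change came to 0.18 (SE 0.06, adjusted p = 0.0202, authors' deposited table), or 1.14-fold with an interval of 1.04 to 1.24, the smallest difference among the 7 genes called. Gpam (chr19:55067268-55127238, minus strand) has 3 miR-27 matches of 7 nucleotides and none for miR-23 or miR-24. It did not pass at an adjusted p under 0.01.

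Furin, a protease gene that matures secreted precursors and has 1 miR-24 match, was at -0.18 (SE 0.11, adjusted p = 0.222, authors' deposited table). Sema6a, a semaphorin gene reported in endothelial cells, had the lowest counts of the 28, with derived means of 1.67 in knockout and 6.88 in control. Its log2 fold change came to -2.04 (SE 0.88, adjusted p = 0.0775, authors' deposited table), and the interval of 0.073 to 0.809-fold is wide. Over the 21 genes that did not pass, 17 had an interval that lay wholly within 1.5-fold in either direction. The exceptions were E2f2, Zeb1, Mef2c and Sema6a. Of the 7 that passed, 5 also had a fold change under 1.5, all but Hmgb2 and Cxcl12.

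Seed matches were common in these genes whether or not their RNA changed. A match for at least 1 of the 3 microRNAs was present in 26 of the 28 (92.9%), against 53.4% of 13094 genes tested that had an annotated 3' UTR. A miR-23 match was present in 19 (67.9% against 24.6%), a miR-27 match in 16 (57.1% against 28.8%) and a miR-24 match in 13 (46.4% against 26.3%). Counting 8-nucleotide matches alone, miR-23 stood at 42.9% against 6.95%, miR-27 at 21.4% against 6.19% and miR-24 at 14.3% against 8.74%. The UTRs of the reported targets were also longer, with a median of 2446 nucleotides against 1166. Per kilobase of UTR there were 0.312 miR-23 matches against 0.206, 0.420 miR-27 matches against 0.240 and 0.192 miR-24 matches against 0.226. Targets are often proposed from such matches, so their frequency here is not independent of how the list arose.

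**Figure D3:**
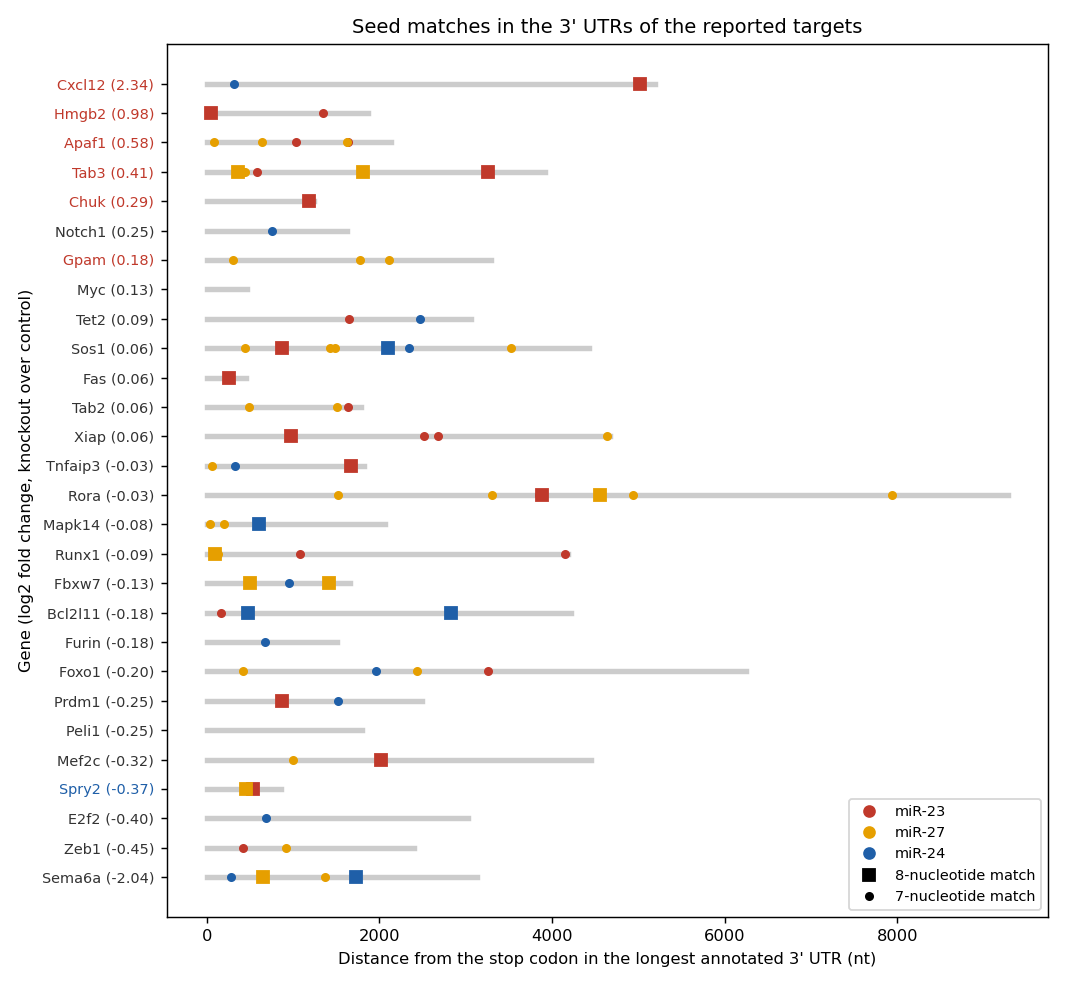
Positions of seed matches along the longest annotated 3' UTR of the 28 reported targets, as distance from the stop codon in nucleotides (x axis), with genes ordered by log2 fold change (y axis, value in brackets). Squares are 8-nucleotide and circles 7-nucleotide matches, coloured by microRNA, and names in red or blue are genes called higher or lower in the knockout. Matches run through the whole order, from Cxcl12 at 2.34 to Sema6a at -2.04, and Myc and Peli1 have none.

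All 7 genes that passed the test had a miR-23 or a miR-27 match, including Spry2, which fell. So did 16 of the 21 that did not pass (76.2%) and 42.5% of the 13094 genes tested. Of the 21, 19 had a match for at least 1 of the 3 and 12 had one of 8 nucleotides. The 12 genes with an 8-nucleotide miR-23 match included 4 called higher (Cxcl12, Hmgb2, Tab3 and Chuk) and 1 called lower (Spry2). Their median log2 fold change was 0.06, against 0.08 for the 910 genes tested with such a match, of which 20.4% were called higher and 6.37% lower. The 6 genes with an 8-nucleotide miR-27 match had a median of -0.11, against 0.12 for the 811 genes tested with one, and 1 was called higher and 1 lower, where 23.6% of those 811 were higher and 7.15% lower. The 4 with an 8-nucleotide miR-24 match, Bcl2l11, Mapk14, Sos1 and Sema6a, had a median of -0.13 against 0.04 for 1144 genes tested, and none was called by the authors' Wald test, 2 having an unadjusted p under 0.05. Of the 1144, 16.1% were called higher and 8.48% lower, and their share at the unadjusted cut was not computed. Groups of 4 to 12 genes with different UTR lengths and abundances allow no statement on the differences between them, which were not tested.

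**Figure D4:**
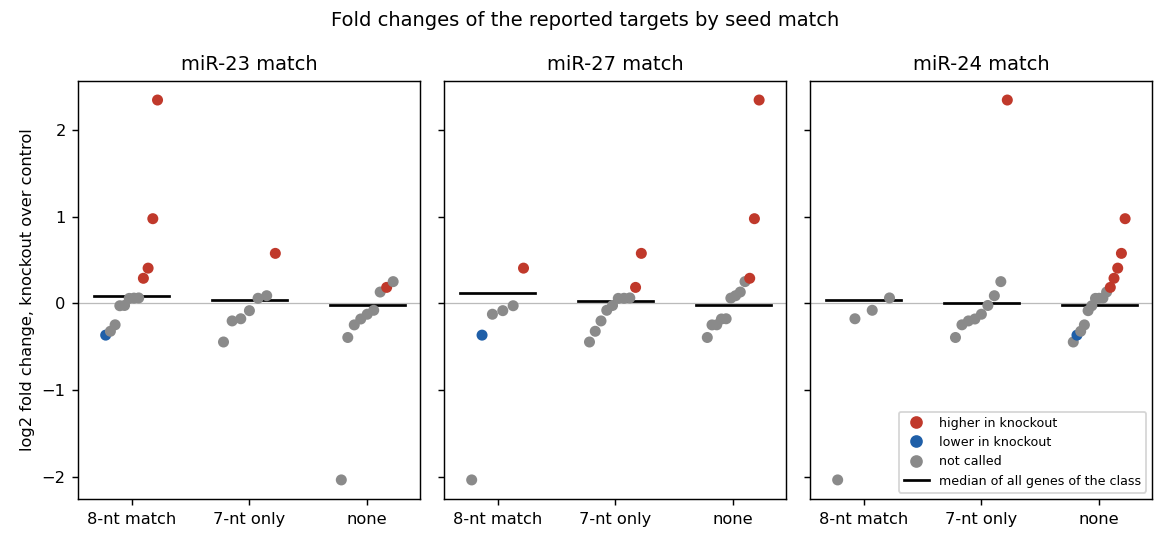
Log2 fold change, knockout over control (y axis), of the 28 reported targets by the longest seed match in their 3' UTR (x axis), with 1 panel each for miR-23, miR-27 and miR-24. Each point is a gene, coloured by its call, and black lines are the medians of all genes tested in that class. Genes with an 8-nucleotide miR-23 match spread from -0.37 (Spry2) to 2.34 (Cxcl12), around a median of 0.06.

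A further 26 genes reported as targets of these microRNAs were listed to set beside the 28, and 25 of them were measured. They were listed from general knowledge but with earlier results of these data known, so they are not an independent comparison. Of the 25 measured, 6 were called higher (24.0%, against 11.3% of genes tested) and 0 lower (against 11.7%) by the authors' Wald test. The share called in either direction was also 24.0%, against 23.0% of genes tested, and thus near the background. Their median log2 fold change was 0.21, against -0.0040 for all genes tested. At an unadjusted p under 0.05 in that test, 7 were higher and 3 lower, and the share of all genes at that cut was not computed. The 6 were H2ax, Eif4ebp2, Il10, Nfe2l2, Plau and Abca1. The DNA damage histone gene H2ax was at 1.21 (SE 0.25, adjusted p = 3.02e-05) and the translation repressor gene Eif4ebp2 at 0.52 (SE 0.09, adjusted p = 1.73e-06, authors' deposited table). Il10, the anti-inflammatory cytokine, was at 0.87 (SE 0.19, adjusted p = 4.73e-05) and Nfe2l2, which encodes the antioxidant regulator NRF2, at 0.35 (SE 0.08, adjusted p = 0.000233, authors' deposited table). Plau and Abca1, named here because the count is small, were at 0.74 (SE 0.20) and 0.79 (SE 0.22, authors' deposited table). They encode a plasminogen activator and the cholesterol exporter.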

How the data were processed

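RNA of 8 libraries, 4 knockout and 4 control, described by the submitters as biological replicates, was poly(A)-selected and sequenced. FastQC, cutadapt, Salmon and DESeq2 with build mm10 are named, per the submitters' processing notes, without roles or versions. Per the file headers, the authors' deposited comparison holds a mean normalized count (signal), a log2 fold change with its SE (log2 units), a Wald score and raw and adjusted p-values. The score equalled fold change over SE to within 1.1e-07, and a recomputed adjustment differed by at most 5.7e-09. A further 8 columns of values per library match no sample label and were not used, so no fit over samples was made, and a call means that the deposited adjusted p-value is under 0.05.

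The 28 members, the lists and the tests were chosen with earlier results of these data known. The 95% intervals are the log2 fold change plus or minus the normal quantile times its SE, without adjustment over genes. All 28 members are accounted for. Of the other reported targets, at most 4 per direction were to be named by smallest adjusted p, and the 2 beyond that were named after their values were seen. The 3' UTR search used GENCODE M21, in which 13094 of 14619 genes tested (89.6%) had an annotated 3' UTR, and the transcript expressed in these cells may have a shorter one. Calls and site search were tested on simulated data. Alternatives changed the filter, the centring, the threshold, the kind of site and the annotation. Python 3.11.15, pandas 2.3.3, numpy 2.4.6, scipy 1.17.1 and matplotlib 3.10.9 were used.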

Additional observations from a re-analysis of the deposited data

How the results depend on the processing

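The count of reported targets called higher stayed between 5 and 7 under the filters, centrings and thresholds tried. The number called lower was 2 in place of 1 with a mean of at least 50, where Bcl2l11 passed and Cxcl12, with a lower mean, was left out. At an adjusted p under 0.1 it was 7, for 13 calls in all (46.4%, against 30.2% of genes tested), adding Bcl2l11, Peli1, Foxo1, Prdm1, Mef2c and Sema6a. Centring on the summed group means turned the sign of Tnfaip3 (0.037) and Rora (0.034), neither called, and without Lyz2 in the sums, an alternative chosen after seeing the data, they stood at 0.027 and 0.024. With 8-nucleotide sites alone 17 of the 28 members had a match for any of the 3 (60.7%, against 19.4% of genes with an annotated 3' UTR). There were 12 for miR-23 (42.9%, against 6.95%), 6 for miR-27 (21.4%, against 6.19%) and 4 for miR-24 (14.3%, against 8.74%). Without the 7-nucleotide matches to bases 2 to 7 plus A, 8 of the 28 had one for miR-24, against 19.2% of genes. With all annotated 3' UTRs searched, 19 of the 28 had a miR-27 match in place of 16, against 30.3% of genes. The causes were not tested. No paired analysis was possible because no column with values of single libraries matches a replicate number of the labels. For the same reason leaving out replicates and another pseudocount were not run, and depth per library is unknown.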
